A study of Homo sapiens with 6 samples.

Results

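The genes described here are 10 components of the DNA damage checkpoint: the apical kinases ATM and ATR, the ATR partner ATRIP, the ATR activators TOPBP1, RAD17 and RAD9A, the mediator CLSPN, the effector kinases CHEK1 and CHEK2, and the mitotic entry kinase WEE1. They were selected by gene symbol, although earlier results of these data were known when they were chosen. The study itself had already reported lower ATRIP expression upon THZ531. The 10 genes correspond to 10 of the 47577 loci in the expression table, 26793 of which carry a symbol. The cells were OVCAR3, an established human line of high-grade serous ovarian adenocarcinoma, and no other line was examined. The 6 libraries of polyA RNA comprised 3 from cells exposed to DMSO, the solvent, and 3 from cells exposed to 200 nM THZ531, a covalent inhibitor of the transcriptional kinases CDK12 and CDK13, both for 6 h. The shared treatment text of the labels names THZ1 instead, whereas the title, description and treatment entry of each treated sample name THZ531. THZ531 acts on both kinases, so the share of each cannot be told apart at this single dose and time.

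The checkpoint halts the cell cycle when DNA is broken or replication stalls. ATM, a large kinase of the PI3K-like family, is activated at double-strand breaks and signals to CHEK2. ATR is brought by ATRIP to single-stranded DNA coated with RPA, is switched on by TOPBP1 at a clamp containing RAD9A that the RAD17 complex loads, and signals to CHEK1 with the help of CLSPN (Claspin). CHEK1 and CHEK2 restrain the CDC25 phosphatases, which would remove the inhibitory phosphate that WEE1 places on CDK1 and CDK2. High-grade serous tumours show much replication stress, and inhibitors of ATR, CHEK1 and WEE1 have been studied in this disease.

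Between 53054048 and 70986130 reads per library fell on annotated loci, and the 10 checkpoint genes had between 160 and 12905 reads each in a library. Values are normalized read counts, that is, reads divided by the size factor of the library. All 10 genes were among the 17568 expressed loci, those that reached a value of 10 in 3 or more libraries. The labelled cell type was checked against its markers: 10 of 10 ovarian epithelial markers were expressed, with sums of 450616 to 586762 normalized reads per library, although PAX8 was lower in THZ531 (log2 fold change -3.18). Leukocyte markers summed to 139 to 177 and endothelial markers to 231 to 420, and 2 of 5 fibroblast markers, DCN and LUM, were not expressed, while COL1A1 rose from 995 to 2190.4. Of 4 endothelial markers 2 were called up (VWF and KDR), and of 2 expressed leukocyte markers (PTPRC and CD14) neither changed by limma (adjusted p = 0.403 and 0.969). Their part in the results was not tested. Bulk RNA cannot separate fewer cells expressing a gene from less RNA per cell.

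A gene is said to rise or fall when limma gave a Benjamini-Hochberg adjusted p of at most 0.05 over all expressed loci, and to be called regulated when the change was at least 1.5-fold with an unadjusted p of at most 0.05, whatever its adjusted p. Of the 10 checkpoint genes, 6 fell, 2 rose, and 2 (CHEK2 and CLSPN) did neither with the deposited scaling, while 34.1% of all expressed loci fell and 34.6% rose (68.6% in all). The same 6 genes had THZ531 libraries below all DMSO libraries, as did 35.7% of expressed loci, and the same 2 lay above them, as did 36.0% (71.7% in all). Only the ATRIP locus and RAD9A were called down-regulated and 0 genes up-regulated by limma, as also by edgeR and DESeq2 on the recovered reads, that is, 2 of 10 in either direction against 39.5% of expressed loci (23.9% down and 15.7% up). The median log2 fold change was -0.34 over the 10 genes and -0.01 over all expressed loci, with quartiles of -0.63 and 0.42. With the deposited scaling, most of the checkpoint genes therefore moved less than the 1.5-fold threshold.

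These directions depend in part on how libraries are scaled. Giving every library the same total lowered all log2 fold changes by 0.24, which turned the background into 9.38% up and 32.0% down. Scaling to RPL34, the ribosomal protein gene used by the study as a qPCR reference, lowered them by 0.49 (6.14% up and 42.8% down). With the deposited scaling, RPL34 itself was thus 0.49 higher in THZ531 on the log2 scale. Which scaling lies closest to the RNA amounts in the cells was not tested. With equal totals, 2 checkpoint genes rose, 8 fell and 5 were called down, and with RPL34 0 rose by limma, 8 fell and 6 were called down. The rises of CHEK1 (0.47) and WEE1 (0.42) became -0.03 and -0.08 under RPL34, whereas the 6 falls kept their direction under the 3 other scalings tried. The third of these, scaling to the upper quartile, lowered log2 fold changes by only 0.02. It left 2 checkpoint genes rising, 6 falling and 2 called down, with CHEK1 at 0.44 and WEE1 at 0.40.

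**Figure D1:**
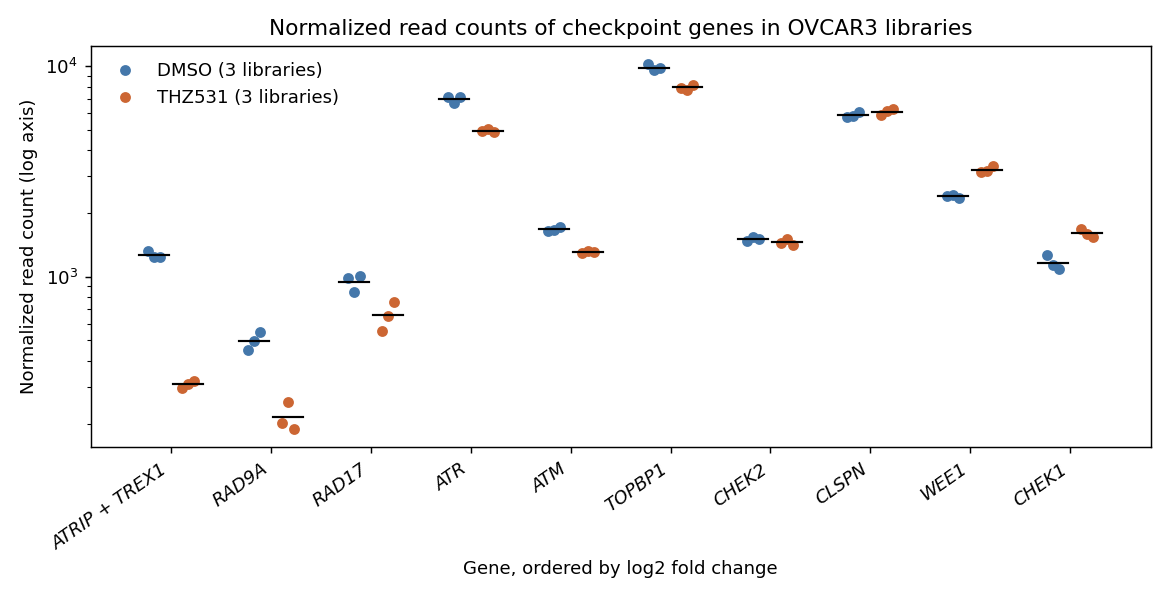
Normalized read count (log axis) of each checkpoint gene in the 3 DMSO and 3 THZ531 libraries, with bars at the group means and genes ordered by log2 fold change. ATRIP with TREX1 and RAD9A show the widest gaps, and the groups overlap for CHEK2 and CLSPN.

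ATM and ATR, the kinases at the top of the pathway, were both lower upon treatment with THZ531. ATM (chr11:108222484-108369102, plus strand, hg38) spans 147 kb with 63 exons in its MANE transcript, the single reference transcript agreed between GENCODE and RefSeq. Its values were 1649.7, 1678 and 1735 in DMSO and 1299.8, 1333 and 1306 in THZ531. Every THZ531 library lay below every DMSO library, and the mean was 1687 ± 43.3 in DMSO and 1313 ± 17.8 in THZ531 (SD, n = 3; log2 fold change -0.36, SE 0.06; limma, adjusted p = 2.58e-05). ATR (chr3:142449235-142578809, minus strand) spans 130 kb with 47 exons. It had 7131, 6729 and 7153 normalized reads in DMSO and 4931, 5015 and 4895 in THZ531. Again the groups were apart, with means of 7004 ± 239 and 4947 ± 61.5 (SD, n = 3) and a log2 fold change of -0.50 (SE 0.04; limma, adjusted p = 1.58e-08). Both changes, 22.2% and 29.4% as percentages of the DMSO mean, were short of the 1.5-fold threshold.

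ATRIP was the checkpoint gene with the largest fall, but the table counts it together with TREX1, a DNA exonuclease gene at its 3′ end, as a single locus (chr3:48446737-48467645, plus strand). All 1096 exonic bases of the TREX1 MANE transcript lie within exons of the ATRIP MANE transcript, where they make up 24.0% of 4576 bases, so the reads of the pair cannot be told apart. The study itself also reported ATRIP lower by qPCR, in separate OVCAR3 cells and in organoids, and a lower level of its protein. The joint locus had 1328, 1249 and 1242 normalized reads in DMSO and 296, 308 and 321 in THZ531. Its mean went from 1273 ± 48.0 to 308 ± 12.4 (SD, n = 3), 4.13-fold lower, with a log2 fold change of -2.04 (SE 0.08; limma, adjusted p = 4.98e-12). Of all expressed loci, 3.97% had a log2 fold change as low or lower. Without a symbol of its own, another locus nested at chr3:48464206-48465884 had 44.2 ± 9.04 and 37.9 ± 7.56 normalized reads, and its log2 fold change of -0.21 did not pass (limma, adjusted p = 0.551).

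Intron 1 is shown for these 3 genes as the apical kinases and the partner with the largest fall, with 4408 bases in ATM, 10491 in ATR and 2944 in ATRIP, and with the letters AATAAA, the usual hexamer upstream of a polyadenylation site, in each. First introns of CHEK2 (7041 bases, 3 matches) and CLSPN (4520 bases, 2 matches), which overlapped between groups, hold the hexamer too, and those of the other 5 genes do not. The first match in each, in capitals with 20 bases on either side, was read from hg38 on the transcribed strand (ATM chr11:108225095-108225140, ATR chr3:142577751-142577796, ATRIP chr3:48447514-48447559).
ATM: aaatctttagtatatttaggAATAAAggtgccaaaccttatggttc
ATR: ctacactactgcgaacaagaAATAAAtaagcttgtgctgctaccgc
ATRIP: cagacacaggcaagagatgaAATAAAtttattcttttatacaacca
The match was preceded by 1928 bases of intron in ATM, 869 in ATR and 441 in ATRIP. Over all introns of the MANE transcripts, ATM held 161 matches (12.1 per 10 kb of intron), ATR 180 (14.8 per 10 kb) and ATRIP 7 (4.29 per 10 kb). ATRIP combined the largest fall with a lower density of the hexamer than either kinase. Its first match in intron 1 lay nearest to the start of the intron among these 3 genes. In CLSPN and CHEK2, which neither rose nor fell with the deposited scaling, 839 and 1466 bases preceded the first match. That of CLSPN thus lay nearer than those of ATR and ATM, and that of CHEK2 nearer than that of ATM. The study itself reported that a proximal intron of ATRIP was raised upon treatment. Whether the density or the position of the hexamer bears on the falls was not tested. A match is a description of the sequence and no evidence that the site was used.

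The ATR activators also fell, and by different amounts. TOPBP1 (chr3:133600255-133661941, minus strand), which binds the clamp and stimulates ATR, had 10245, 9569 and 9816 normalized reads in DMSO and 7935, 7753 and 8167 in THZ531. The groups did not overlap, and its log2 fold change was -0.31 (SE 0.04; limma, adjusted p = 2.67e-06). RAD17 (chr5:69369293-69414806, plus strand), the clamp loader subunit, had 991, 851 and 1008 in DMSO against 553, 655 and 758 in THZ531. Its means of 949.8 ± 86.1 and 655 ± 102 (SD, n = 3) gave a log2 fold change of -0.54 (SE 0.10; limma, adjusted p = 0.000232). THZ531 replicates ranged more widely here than for most checkpoint genes, and leaving out DMSO replicate 2 (-0.62) or THZ531 replicate 3 (-0.65) brought RAD17 past the 1.5-fold threshold. Without THZ531 replicate 1 the log2 fold change was smaller, at -0.43, and leaving out any other library gave -0.50 to -0.55.

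RAD9A (chr11:67391952-67398390, plus strand), a subunit of the ring-shaped clamp, was the other gene called down-regulated. It had 450.1, 495 and 549 normalized reads in DMSO and 202, 255 and 189 in THZ531, without overlap. From 498 ± 49.5 to 215 ± 34.9 (SD, n = 3), it was 2.32-fold lower, with a log2 fold change of -1.22 (SE 0.13; limma, adjusted p = 4.93e-07), and 12.03% of expressed loci were as low or lower. RAD9A is the shortest of the 10 genes at 6.44 kb, with 11 exons, and its introns hold 0 matches to AATAAA. Its intron 1, printed whole because it is the shortest first intron of the set (chr11:67392079-67392160, hg38, splice site dinucleotides in capitals), is 82 bases long.
RAD9A intron 1: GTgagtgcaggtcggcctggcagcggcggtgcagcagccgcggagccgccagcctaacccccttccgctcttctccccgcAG
The start of intron 1 of ATRIP, with 10 bases of exon 1 before it, is given for comparison (chr3:48447083-48447112, the GT dinucleotide in capitals).
ATRIP exon 1 to intron 1: gacgtgtccaGTgagtgctcctcgcggcct
The genes called down-regulated had first introns of 82 bases (RAD9A) and 2944 bases (ATRIP), and only that of ATRIP holds the hexamer. Whether either trait bears on the falls was not tested. By locus span, the share of expressed single-gene loci called down was 20.7% under 10 kb, 25.8% from 10 to 30 kb, 23.6% from 30 to 100 kb and 24.5% above 100 kb. RAD9A falls in the first of these classes, and ATM and ATR, which were not called, in the last. The ATRIP locus spans 20.9 kb but is counted with TREX1, so it is not among the single-gene loci. Whether span bears on the calls was not tested.

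CLSPN, the adaptor between ATR and CHEK1 (chr1:35720213-35769978, minus strand), overlapped between groups, with 5720.1, 5785 and 6099.9 normalized reads in DMSO and 5886, 6127 and 6247 in THZ531. Its log2 fold change was 0.05 (95% interval -0.04 to 0.14; limma, adjusted p = 0.276), and it fell under 2 other scalings, to -0.19 with equal totals and -0.44 with RPL34 (limma, adjusted p = 0.000832 and 0.000166).

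The effector kinases behaved differently from each other. CHEK1 (chr11:125625136-125676255, plus strand), the main target of ATR, had 1275, 1135 and 1096 normalized reads in DMSO and 1685, 1599 and 1548 in THZ531. All 3 THZ531 values exceeded all DMSO values, with means of 1611 ± 69.1 and 1168 ± 94.4 (SD, n = 3). CHEK1 thus rose by 0.47 on the log2 scale (SE 0.07; limma, adjusted p = 1.44e-05), or stood at -0.03 when scaled to RPL34. CHEK2 (chr22:28687743-28742430, minus strand), the target of ATM, had 1483, 1538 and 1511 in DMSO and 1447, 1521 and 1418 in THZ531. These overlapped, and the log2 fold change of -0.05 had a 95% interval from -0.17 to 0.07 (limma, adjusted p = 0.468). It fell under 2 other scalings, to -0.29 with equal totals and -0.54 with RPL34 (limma, adjusted p = 0.000357 and 4.67e-05). The pseudogene CHEK2P2, a copy in the table, was listed at 0 in 5 libraries and at 2.27 in THZ531 replicate 2.

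WEE1 (chr11:9573670-9589985, plus strand), which holds CDK1 inactive, had 2430.1, 2445 and 2371 normalized reads in DMSO and 3150.0, 3177 and 3348 in THZ531. The groups were apart, with a log2 fold change of 0.42 (SE 0.05; limma, adjusted p = 8.61e-07) that became -0.08 when scaled to RPL34.

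**Figure D2:**
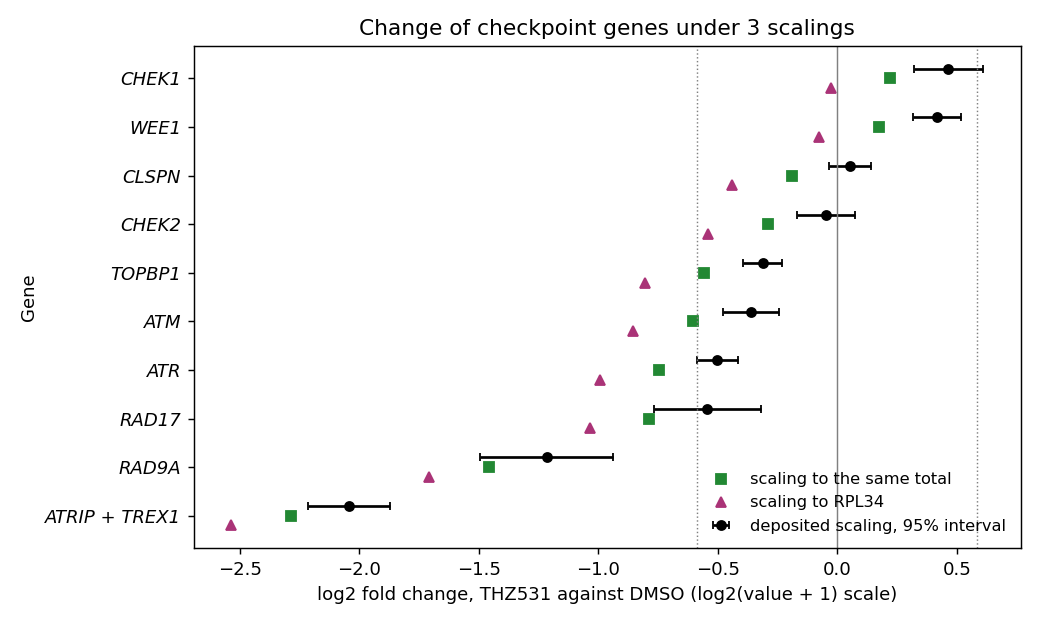
Log2 fold change (THZ531 against DMSO, log2(value + 1) scale) of each checkpoint gene with the deposited scaling and its 95% interval (circles), with equal library totals (squares) and scaled to RPL34 (triangles), with dotted lines at 1.5-fold. CHEK1 moves from 0.47 to -0.03, WEE1 from 0.42 to -0.08 and CLSPN from 0.05 to -0.44 between the deposited scaling and RPL34, whereas ATRIP stays between -2.53 and -2.04.

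Levels of different genes were compared as normalized reads per kb of MANE transcript, which is the relevant length for ATRIP only if few of its reads come from TREX1. The loci of CHEK1 (end 125676255, MANE end 125657147) and CLSPN (start 35720213, MANE start 35732112) also run well past their MANE transcripts. Reads from outside the MANE transcript may therefore count toward their levels. In DMSO, TOPBP1 had the highest level (1714 ± 59.4, SD, n = 3) and ATM the lowest (131 ± 3.35). In between came ATR (859 ± 29.2), CHEK2 (819 ± 15.04), CLSPN (689 ± 23.9), WEE1 (673 ± 10.9), RAD17 (311 ± 28.2), CHEK1 (283 ± 22.9), the ATRIP locus (278 ± 10.5) and RAD9A (239 ± 23.7). Replicates of neighbours in this order overlapped for ATR and CHEK2, CLSPN and WEE1, RAD17 and CHEK1, and CHEK1 and ATRIP. In THZ531 the order was TOPBP1 (1380 ± 36.0), WEE1 (899 ± 29.96), CHEK2 (793 ± 28.9), CLSPN (715 ± 21.6), ATR (606 ± 7.54), CHEK1 (390.3 ± 16.7), RAD17 (215 ± 33.5), RAD9A (103 ± 16.7), ATM (102 ± 1.38) and ATRIP (67.4 ± 2.72), and only RAD9A and ATM overlapped. By group mean, WEE1 thus went from rank 5 to rank 2, ATR from 2 to 5, and ATRIP from 8 to 10. Some DMSO ranks differed between libraries. WEE1 lay above CLSPN in DMSO replicates 1 and 2, CHEK2 above ATR in replicate 2, and ATRIP above CHEK1 in replicate 3. The order of genes within a library does not depend on its scaling.

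**Figure D3:**
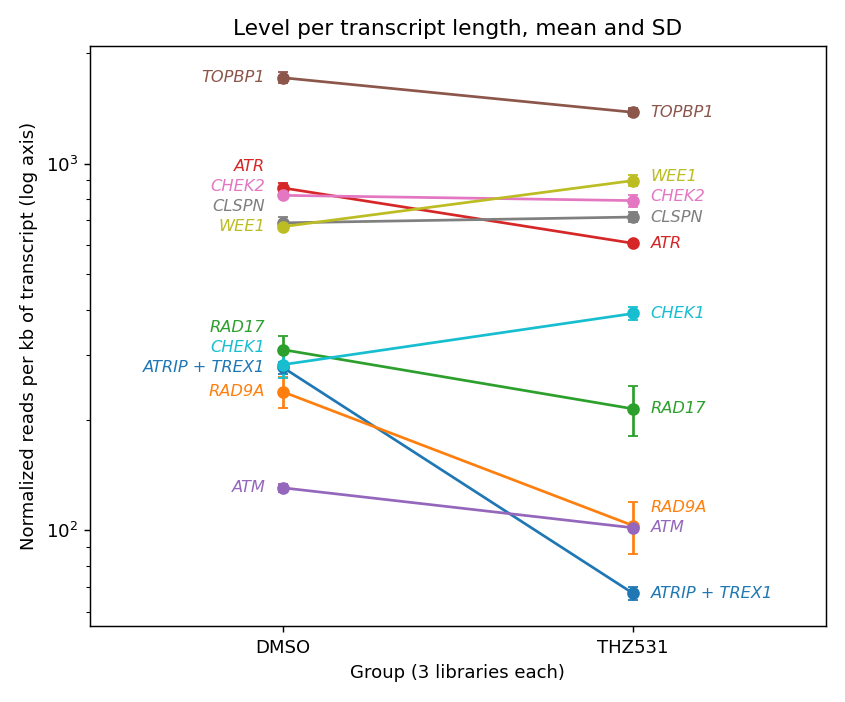
Normalized reads per kb of MANE transcript (log axis) for each checkpoint gene in DMSO and THZ531 (points, means of 3 libraries; bars, SD). Lines of WEE1 and ATR cross, and the ATRIP locus drops from 278 to 67.4, below ATM at 102.

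Ratios of 2 genes in the same library are likewise free of the scaling, and 12 were tested with an exact two-sided permutation test, whose smallest p with 3 against 3 libraries is 0.1. For 10 of the 12 that value was reached, with an adjusted p of 0.12 in this exact test, so none could pass 0.05. Per kb of transcript, the ATRIP locus stood at 0.324 ± 0.0127 of ATR in DMSO and at 0.111 ± 0.00511 in THZ531 (SD, n = 3), a difference of -1.54 on the log2 scale. The ATRIP locus, counted with TREX1, was therefore reduced relative to ATR in all 3 THZ531 libraries. ATM relative to ATR was 0.152 ± 0.00573 in DMSO and 0.168 ± 0.00104 in THZ531, a log2 difference of 0.14. The groups were again separate, but the balance of the apical kinases shifted far less than that of ATR and the ATRIP locus.

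Among the remaining members, CHEK1 relative to CHEK2 went from 0.346 ± 0.0333 to 0.493 ± 0.0255 per kb (log2 difference 0.51), and CLSPN relative to CHEK1 from 2.45 ± 0.263 to 1.84 ± 0.133 (log2 difference -0.41). RAD9A lost against both of its partners, with log2 differences of 0.67 for RAD17 over RAD9A and 0.90 for TOPBP1 over RAD9A. The log2 ratio of WEE1 to CHEK1 overlapped between groups, at 0.93, 1.11 and 1.11 in DMSO and 0.90, 0.99 and 1.11 in THZ531, with a difference of -0.05 (exact permutation p = 0.6). WEE1 gained 0.98 on the log2 scale over PKMYT1, the related inhibitory kinase of CDK1, which fell by 0.56 (limma, adjusted p = 4.85e-06); against CDC25A, the phosphatase that opposes it, the log2 ratio of WEE1 differed by -0.49.

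**Figure D4:**
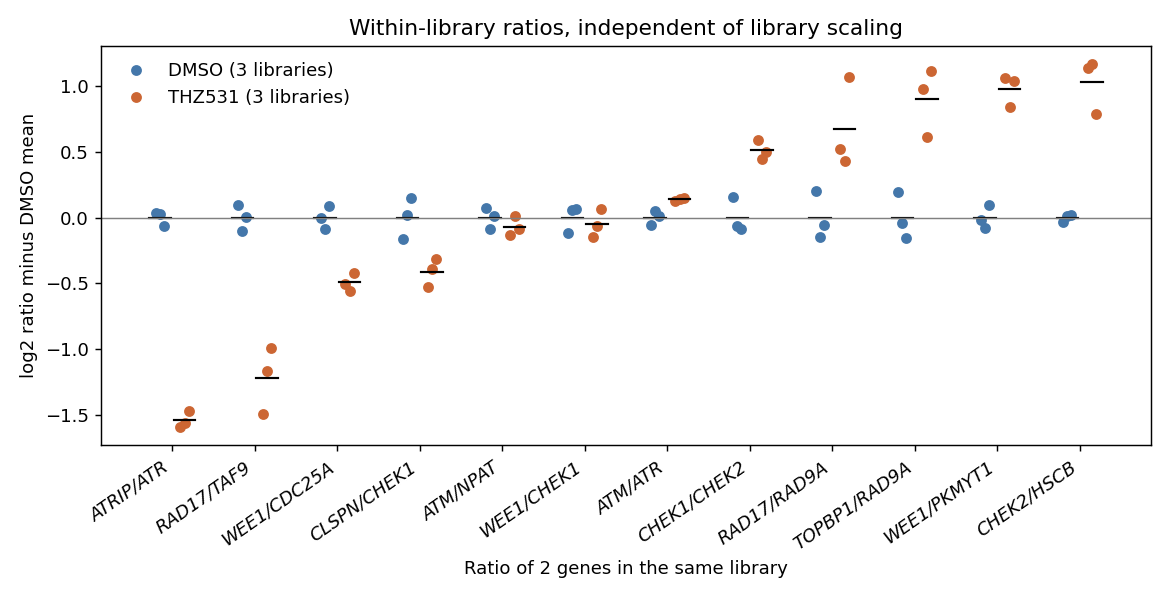
Log2 ratio of 2 genes in the same library, minus the DMSO mean of that ratio, for 12 pairs in 3 DMSO and 3 THZ531 libraries with bars at the group means. Groups overlap for ATM/NPAT and WEE1/CHEK1 and are apart for the other 10 pairs, from -1.54 for ATRIP/ATR to 1.03 for CHEK2/HSCB.

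The expression of the wider pathway was examined with 5 lists of 52 genes, all of them expressed, none of them among the 10 checkpoint genes. Of these, 7 were called up and 7 down, where 15.7% and 23.9% of all expressed loci were, and their median log2 fold change was 0.01, against -0.23 with equal totals (4 up, 14 down) and -0.48 with RPL34 (0 up by limma, 4 at an adjusted p of at most 0.05, and 21 down). The lists were chosen with earlier results of these data known, so their counts stand as a description. The shares of all expressed loci, 15.7% called up and 23.9% called down with the deposited scaling, belong beside the counts of each list below.

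For the factors around ATR (13 genes: clamp, loader, RPA and fork protection), 3 were called down and 1 up, with a median of -0.06 that was -0.29 with equal totals and -0.53 with RPL34. RHNO1, which links the clamp to TOPBP1, went from 2370.2 ± 89.3 to 1090.3 ± 29.1 normalized reads (SD, n = 3; log2 fold change -1.12; limma, adjusted p = 7.24e-11). The remaining clamp subunits differed from RAD9A in size, since RAD1 fell by 0.45 on the log2 scale (limma, adjusted p = 3.48e-05) and HUS1 stood at -0.04 (limma, adjusted p = 0.718). Loader subunits that partner RAD17 moved in opposite directions, with RFC4 at -0.92 and RFC3 at 0.88 on the log2 scale (limma, adjusted p = 3.96e-09 and 1.09e-09).

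On the ATM side (10 genes: break sensors and chromatin mediators), 2 were called down and 1 up, with a median of 0.08 that was -0.16 with equal totals and -0.41 with RPL34. BRCA1, a repair and checkpoint protein phosphorylated by ATM, went from 713 ± 36.4 to 185 ± 10.5 (SD, n = 3; log2 fold change -1.94; limma, adjusted p = 1.52e-10). MDC1, the adaptor that binds phosphorylated H2AX, went from 2661 ± 110 to 1397 ± 79.1 (log2 fold change -0.93), and RNF168, a ubiquitin ligase acting on histones at breaks, from 5292 ± 348 to 9400.1 ± 256 (log2 fold change 0.83). Of the MRE11 complex that activates ATM, RAD50 fell by 0.51, NBN rose by 0.54 and MRE11 stood at 0.08 on the log2 scale (limma, adjusted p = 3.5e-06, 2.37e-09 and 0.516).

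Downstream, among 11 effectors of mitotic entry, 2 were called up and 2 down, with a median of -0.26 (1 up and 2 down by edgeR and DESeq2, 1 and 4 with equal totals, and 0 and 6 with RPL34, where the median was -0.75). The 3 CDC25 phosphatases diverged. CDC25A rose from 1322 ± 102 to 2479 ± 66.8 (SD, n = 3; log2 fold change 0.91; limma, adjusted p = 2.12e-09), whereas CDC25B dropped to 6438 ± 195 from 10755 ± 495 (log2 fold change -0.74; limma, adjusted p = 2.8e-10). CDC25C went from 212 ± 13.2 to 139.8 ± 40.8 (log2 fold change -0.63; limma, adjusted p = 0.0071), and without THZ531 replicate 2 its log2 fold change of -0.46 was under the threshold. The mitotic kinase AURKA was called up at the threshold itself, with a log2 fold change of 0.59 that was 0.34 with equal totals, and it was not called by edgeR or DESeq2.

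A list of 9 genes was drawn up around the reversal of checkpoint signals. It holds phosphatases and their subunits, the deubiquitinases USP7 and USP28, and the ubiquitin ligase subunit BTRC. Whether each gene acts in that direction here was not tested. Of the 9, 3 were called up and 0 down by limma (2 and 0 by edgeR, 3 and 0 by DESeq2), against 15.7% and 23.9% of all expressed loci. In all, 7 rose and 1, BTRC, fell (log2 fold change -0.51), where 34.6% of all expressed loci rose and 34.1% fell. The median was 0.45, although it was 0.20 with equal totals and -0.05 with RPL34. PPM1D, the phosphatase WIP1, went from 498 ± 45.0 to 996 ± 49.7 (SD, n = 3; log2 fold change 1.00; limma, adjusted p = 3.43e-08), and PPP2CA, a catalytic subunit of PP2A, from 6245 ± 209 to 9883 ± 320.4 (log2 fold change 0.66). The 9 kinases related to ATM and ATR and their folding chaperones had 0 calls in either direction by limma, edgeR and DESeq2, 3 rises and 4 falls in each (also at an unadjusted p under 0.05), and a median of -0.01. With equal totals they had 1 call down, 1 rise, 7 falls and a median of -0.25, and with RPL34 4 calls down, 0 rises by limma, 8 falls and a median of -0.50.

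**Figure D5:**
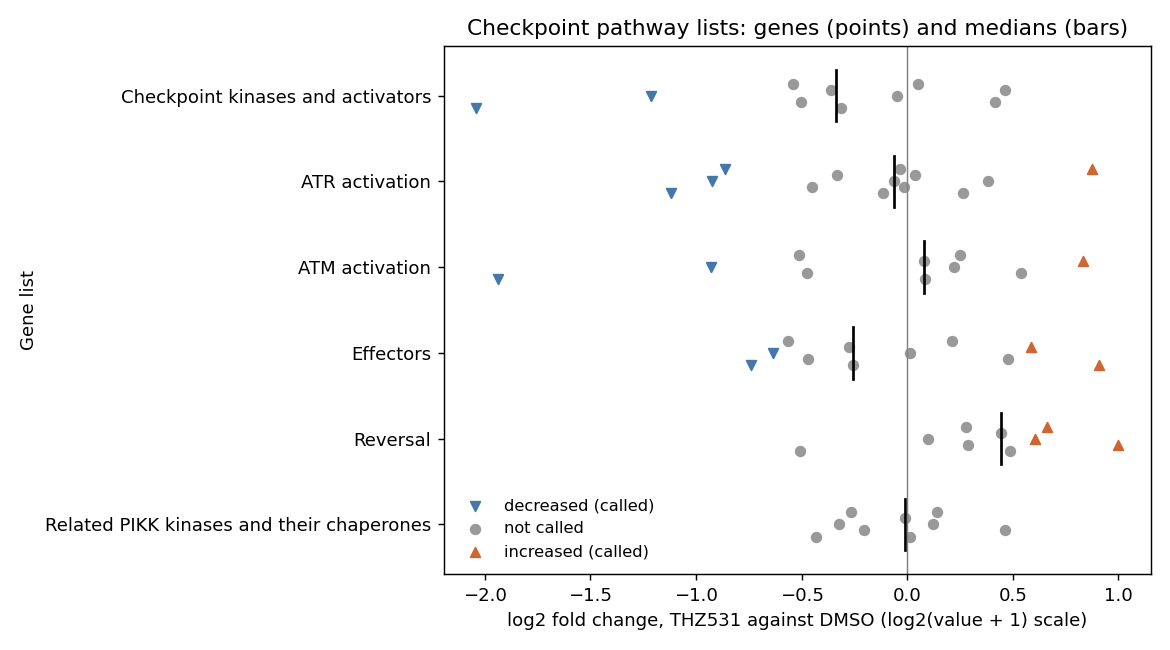
Log2 fold change (THZ531 against DMSO) of every gene in the 10 checkpoint genes and in 5 pathway lists, with triangles for genes called up or down, grey circles for the rest and bars at the medians. Medians run from -0.34 for the checkpoint genes to 0.45 for the reversal list, which is -0.05 when scaled to RPL34.

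Several checkpoint genes start head to head with another gene or lie next to one that moved otherwise. In all, 18 loci overlapped a checkpoint gene or lay within 3 kb of one, and 15 of them were expressed. Of these 15, 4 were called up and 3 down, while 15.7% of all expressed loci were called up and 23.9% down. The pairs that start head to head are ATM with NPAT, CHEK2 with HSCB, RAD17 with TAF9 and TOPBP1 with TF, of which TF, at 24.0 and 23.2 normalized reads, was near the expression minimum. How strand was used in counting is not given in the sources used here, and the annotated loci of these pairs overlap by 155 bases for ATM, 407 for CHEK2 and 721 for RAD17, so reads there may be shared.

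HSCB, an iron-sulphur cluster chaperone, had 473, 474 and 464 normalized reads in DMSO and 204, 210.3 and 255 in THZ531. It thus fell without overlap (log2 fold change -1.08; limma, adjusted p = 5.17e-07) beside CHEK2, which overlapped between groups, and the log2 ratio of CHEK2 to HSCB was 1.03 higher in THZ531. TAF9, a subunit of TFIID counted jointly with AK6, had 7297, 7207 and 7893 in DMSO and 12274, 11558 and 11877 in THZ531. It rose (log2 fold change 0.67; limma, adjusted p = 8.36e-10) while RAD17 fell, a difference of -1.22 in the log2 ratio of RAD17 to TAF9. NPAT, a coactivator of histone genes, fell by 0.29 (limma, adjusted p = 0.00296), close to ATM, and their log2 ratio differed by -0.07 (exact permutation p = 0.2).

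RefSeq promoter windows, 250 bases before to 50 bases after the start on GRCh38.p14, were found for 9 of the 10 genes. They are printed for the genes called down-regulated and for CHEK2 and RAD17, whose head-to-head partners moved otherwise. Capitals mark CCAAT as well as GGGCGG, and also CCGGAA, on either strand (ATRIP chr3:48446487-48446786, RAD9A chr11:67391736-67392035, CHEK2 chr22:28741771-28742070 on the minus strand, RAD17 chr5:69369568-69369867).
ATRIP promoter: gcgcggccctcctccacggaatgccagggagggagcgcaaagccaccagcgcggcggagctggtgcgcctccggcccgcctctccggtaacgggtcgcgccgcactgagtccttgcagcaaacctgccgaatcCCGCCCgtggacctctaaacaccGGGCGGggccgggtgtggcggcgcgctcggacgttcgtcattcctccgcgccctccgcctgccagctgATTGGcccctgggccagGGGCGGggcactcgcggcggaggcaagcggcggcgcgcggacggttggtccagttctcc
RAD9A promoter: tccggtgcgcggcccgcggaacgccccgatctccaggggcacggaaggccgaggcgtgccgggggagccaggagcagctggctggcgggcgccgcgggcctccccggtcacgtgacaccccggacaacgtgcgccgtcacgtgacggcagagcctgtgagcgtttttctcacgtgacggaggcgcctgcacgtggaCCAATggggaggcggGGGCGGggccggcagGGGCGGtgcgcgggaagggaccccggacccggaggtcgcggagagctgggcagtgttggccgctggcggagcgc
CHEK2 promoter: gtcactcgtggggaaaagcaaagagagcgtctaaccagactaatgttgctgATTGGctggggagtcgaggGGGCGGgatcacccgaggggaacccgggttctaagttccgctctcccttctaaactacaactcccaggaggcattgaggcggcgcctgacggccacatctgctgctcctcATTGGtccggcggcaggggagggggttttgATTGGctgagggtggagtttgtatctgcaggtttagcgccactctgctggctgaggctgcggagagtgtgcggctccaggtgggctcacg
RAD17 promoter: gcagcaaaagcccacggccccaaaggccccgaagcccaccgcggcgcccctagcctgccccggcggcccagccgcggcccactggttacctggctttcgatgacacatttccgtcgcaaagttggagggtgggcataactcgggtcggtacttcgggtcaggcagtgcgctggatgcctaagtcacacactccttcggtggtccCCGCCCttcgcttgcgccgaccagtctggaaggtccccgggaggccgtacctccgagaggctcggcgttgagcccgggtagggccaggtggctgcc
Of the 9 windows, 8 held GGGCGG, 6 CCAAT, 3 CCGGAA, 1 TTTGAA, 1 TTGGCGC and 0 TATAAA. Over all 35116 promoter windows of the same table, the shares were 45.0% for GGGCGG, 34.6% for CCAAT, 17.2% for CCGGAA, 15.2% for TTTGAA, 3.04% for TTGGCGC and 11.5% for TATAAA. ATRIP, which was called down, and CHEK1, which was not called, each held 3 matches to GGGCGG and 1 to CCAAT, although the CHEK1 entry starts 1061 bases from its MANE start.

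On the same strand downstream, XRN1, the cytoplasmic exoribonuclease that begins 1172 bases beyond the end of ATR, had 439.8, 629 and 533 normalized reads in DMSO and 1053, 1272 and 1248 in THZ531. It rose (log2 fold change 1.17; limma, adjusted p = 1.32e-07) where ATR fell. C1orf216, 1023 bases after CLSPN, went from 1422 ± 101 to 3199.6 ± 109 (log2 fold change 1.17), and MARVELD2, a tight junction gene 309 bases after RAD17, from 1773 ± 37.0 to 737 ± 99.7 (log2 fold change -1.28). The downstream neighbours therefore did not share a direction. Opposite and overlapping, PPP1CA (210 shared bases with RAD9A) rose by 0.33 on the log2 scale, or stood at -0.16 when scaled to RPL34, and PLS1, which overlaps the 5′ part of ATR, rose by 0.15 (-0.09 with equal totals, -0.34 with RPL34). C11orf65, a longer locus of which 60584 bases overlap ATM, had 32.0 ± 5.43 and 17.5 ± 6.51 normalized reads (limma, adjusted p = 0.0614).

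The named loci whose values most resembled ATM over the 6 libraries, by the root mean square difference of centred log2(value + 1), were E2F4 (0.012), NRCAM (0.016) and NOL7 (0.022). For ATR they were ARCN1 (0.011), MKKS (0.026) and AIMP2 (0.026). All 6 fell in THZ531, with changes between -31.3% and -22.4% of their DMSO means. Because the loci were picked for their likeness to ATM or ATR, falls of about that size follow from the choice. These likenesses rest on 6 libraries in 2 groups and are a description.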

How the data were processed

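The deposited table holds a signal in 6 libraries: per the labels and the study's methods, the authors made polyA libraries with a stranded kit, mapped reads to hg38 with STAR (2.7.5a in the labels), counted them with featureCounts on FAST DB loci and divided the counts by a DESeq2 size factor per library, without a length correction. All values (100%) were whole multiples of 1 step per library within 0.01 reads, so the read counts were recovered. The genes and lists were chosen with earlier results of these data known, and 1 list is not reported here. Values were tested as log2(value + 1) with limma 3.58.1 (trended variance, R 4.3.3), DMSO against THZ531 without covariates, over the 17568 expressed loci. Fold changes on that scale understate changes of low genes. Ratios used exact permutation tests (scipy 1.17.1). Transcript models came from GENCODE v44 on hg38. The fits were tested on simulated data.

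Named were all 10 genes, up to 2 called up and 2 called down per list with a mean of at least 100, both genes of each ratio, expressed loci overlapping a checkpoint gene, and 3 loci most like ATM and ATR. Other list genes, loci within 3 kb and the ratios to head-to-head partners were chosen after their values were seen. Alternatives were pseudocounts of 0.1 and 10, other minimums (none, 50), scalings and thresholds, a replicate block, edgeR 4.0.16 and DESeq2 1.42.0 on the recovered counts, and leaving out each library. The 3 samples of a group are labelled as biological repeats. Same-numbered libraries did not deviate together (correlations 0.0017, 0.019 and -0.039).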

Additional observations from a re-analysis of the deposited data

How the results depend on the processing

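Of 262 recomputed counts and ratios, 233 kept their direction and size class and 28 counts moved by over 1.5 times. Scaling moved most: with equal totals, 1647 expressed loci were called up, 5 checkpoint genes down, and 4 pathway genes up and 14 down; with RPL34, 1078 loci up and 7524 down, 6 checkpoint genes down, and 0 pathway genes up and 21 down. A fold of at least 2 left 1353 loci up and 2689 down, and 1 pathway gene up and 2 down. Loci overlapping a checkpoint gene (1 up, 2 down) had 1 down without a minimum, with a minimum of 50, by adjusted p, by DESeq2 and at a fold of 2, 4 down with RPL34, 0 up with equal totals, RPL34 or a fold of 2, and 4 up once loci within 3 kb were included, a choice made after seeing the data. With the replicate block, 1 of them was down, and 2 checkpoint genes, 7 pathway genes up and 7 down; the numbers mark no stated pairing. Leaving out each library gave 1 to 2 such loci down (C11orf65 lost without DMSO replicate 1 or 3 or THZ531 replicate 1 or 2) and 2 to 3 checkpoint genes down. Reversed were CHEK1 (-0.028), WEE1 (-0.077), CLSPN (-0.44), PLS1 (-0.34) and PPP1CA (-0.16) with RPL34, CLSPN (-0.19) and PLS1 (-0.094) with equal totals, and the log2 ratio of WEE1 to CHEK1, which ran from -0.11 to 9.2e-04 over the left-out libraries (above 0 without THZ531 replicate 1). The cause was not tested. The read depth limits C11orf65, TF and the locus without a symbol in ATRIP most.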
